A study of Homo sapiens with 12 samples.

Results

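The genes described here are 43 genes of N-glycan assembly, transfer and trimming, out of 20015 genes counted in HT29 cells under stress of the endoplasmic reticulum (ER). They were chosen by symbol and matched to the counted genes by Ensembl identifier, and all 43 were found. By step they comprise 5 genes of dolichol supply, 8 of mannose supply, 9 ALG enzymes, 12 genes for subunits of the oligosaccharyltransferase, 3 genes of the ER glucosidases and 6 genes of Golgi trimming. HT29 is a cell line from a human colorectal adenocarcinoma, and all cells of the study expressed the nuclease Cas9. The 12 libraries formed 4 groups of 3, which the series text calls biological replicates. WT cells carried a lentiviral guide RNA with no target and QRICH1 KO cells a lentiviral guide against QRICH1. Cells of either genotype were treated for 14 h, with DMSO as the control or with 0.3 µg/ml of tunicamycin (Tm). Whether the KO cells were a clone or a mixed population is not given in the sources used here. The comparisons below follow the 43 genes through the Tm response of each genotype, through the difference between genotypes under each treatment, and through the difference between the 2 responses.

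N-linked glycosylation builds a branched sugar on the lipid dolichol phosphate in the ER membrane and then transfers it as a block to asparagines of proteins that enter the ER. Sugars are first added on the cytosolic face and then, after the lipid is flipped, in the ER lumen, where mannose and glucose come from dolichol-linked donors. After transfer, ER glucosidases and Golgi mannosidases trim the sugar, and Golgi transferases rebuild it. Tunicamycin inhibits DPAGT1, the enzyme that places the first sugar on the lipid, so proteins stay without N-glycans and the unfolded protein response is switched on. In that response the factors ATF6 and XBP1 bind short promoter elements of genes for ER functions.

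Library totals ranged from 6856736 to 17861844 counts, so that a gene with a count of 0 could still have stood at up to 3 counts, or 0.168 to 0.438 counts per 1000000 (CPM). This upper limit takes in counting error alone, because the reads carried no molecular identifiers. Levels are given as CPM scaled by TMM factors. Library 3 of QRICH1 KO DMSO and library 3 of QRICH1 KO Tm stood apart, with counts for 15340 and 14813 genes against 13124 to 14094 in the other libraries, so the Tm response in KO was also tested without this pair, and the genes of the 43 whose call was lost are named. The QRICH1 transcript stood at 24.1 ± 0.714 CPM in KO DMSO against 29.6 ± 6.26 in WT DMSO, and at 22.8 ± 3.84 in KO Tm against 29.2 ± 3.04 in WT Tm (SD, n = 3). Neither difference was called (adjusted p = 0.577 and 0.352), and a guide that changes the reading frame need not change the transcript level, so these values do not check the knockout. All 9 epithelial markers were tested, though CDX2 and CEACAM5 averaged at most 2.01 CPM in any group. KRT19 was lower with Tm in WT (log2 -0.64; adjusted p = 0.022) and in KO (log2 -0.61; adjusted p = 0.0408), and VIL1 in WT (log2 -0.80; adjusted p = 6.02e-05), where KO had -0.28 (adjusted p = 0.121). The other 7 were not called with Tm. The 9 summed to 64295 to 99031 CPM per library in WT DMSO, 58156 to 75128 in WT Tm, 72586 to 94932 in KO DMSO and 62877 to 79442 in KO Tm, and their part in the results below was not tested. The 4 leukocyte markers summed to at most 0.608 CPM per library, with CD3E at 0 throughout. Sums reached at most 1.67 CPM for 4 fibroblast markers and 3.04 CPM for 3 endothelial markers. Of the 43 genes, 8 share at least 10% of their exonic bases with another counted gene (MPI, GMPPB, ALG1, ALG9, ALG11, OST4, TMEM258 and KRTCAP2) and 7 have named pseudogenes, so their counts are less certain. In bulk RNA, fewer cells of a kind and less RNA per cell cannot be told apart.

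The promoters of the 43 genes were searched for elements of the unfolded protein response, in RefSeq windows of GRCh38.p14 that cover the 250 bases before the start. Entries matched 38 of the 43 genes, and STT3B, RPN1, TUSC3, MOGS and MAN1A2 had none. Both strands were searched for CCAAT and CCACG 9 bases apart (the ER stress response element, ERSE), ATTGG and CCACG 1 base apart (ERSE-II), TGACGTGG (the unfolded protein response element) and TGATGNAAN (the C/EBP-ATF element). ERSE was found for ALG12 alone, which is 2.63% of the 38 genes beside 0.074% of all 35116 windows and 0.162% of the 9258 tested genes with a window. ERSE-II and TGACGTGG were in no window of the 38 genes, beside 0.14% and 0.983% of tested genes. TGATGNAAN was found for FUT8, beside 2.29% of tested genes. The shorter ACGTGG, the core shared with TGACGTGG, was added after the data were seen and was found for 11 genes (28.9%), beside 14.1% of tested genes and 8.37% of all windows. Of these DHDDS, NUS1, GMPPB, OSTC and MGAT1 were called higher with Tm in WT, and SRD5A3 was called lower. DOLK, DPM3, MPDU1, ALG3 and GANAB were not called. Whether the match goes with the Tm response was not tested. A match is a description of letters and not a site of binding.

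Promoter stretches are shown for 6 genes, with the matched letters in capitals. These genes were picked because they behaved differently under Tm, so they do not stand for all genes with a match. ALG12 (chr22:49918529-49918597, minus strand) holds the ERSE, 116 to 134 bases before its start. That ERSE also lies 62 to 80 bases before the start of CRELD2, a gene for an ER protein that is read in the opposite direction from a start 195 bases away. OSTC (chr4:108650349-108650384, plus strand), NUS1 (chr6:117675383-117675438, plus strand) and GMPPB (chr3:49723984-49724039, minus strand) hold ACGTGG on the opposite strand, printed as its complement CCACGT. ALG3 (chr3:184249549-184249604, minus strand) and SRD5A3 (chr4:55346014-55346069, plus strand) hold ACGTGG in the reading direction. Each is printed 5′ to 3′ in the direction of its gene.
ALG12: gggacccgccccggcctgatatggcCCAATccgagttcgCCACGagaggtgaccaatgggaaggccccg
OSTC: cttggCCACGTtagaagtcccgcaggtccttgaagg
NUS1: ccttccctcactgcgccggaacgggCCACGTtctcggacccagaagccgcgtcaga
GMPPB: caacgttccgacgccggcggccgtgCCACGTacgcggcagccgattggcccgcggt
ALG3: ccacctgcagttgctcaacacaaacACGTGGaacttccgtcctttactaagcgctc
SRD5A3: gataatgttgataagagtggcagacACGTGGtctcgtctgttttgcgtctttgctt

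Tm raised genes at every step of the pathway in WT cells, most of all those of the oligosaccharyltransferase, and of the ER glucosidases MOGS alone. Of the 41 genes that passed the filter on low counts, 22 rose, 2 fell (SRD5A3 and ALG6) and 17 were not called at an adjusted p under 0.05. Without WT Tm library 2 neither fall was called. Over all 11323 genes tested, 12.6% were called higher and 11.1% lower. The median log2 fold change was 0.71 for the 41 genes and -0.02 for all genes tested. In QRICH1 KO cells 19 of the 41 rose and none fell, with a median of 0.54, while 9.09% of all genes were called higher and 6.53% lower. Without library 3 of both KO groups, 16 of the 41 rose in KO cells, and the calls of MPI, ALG11 and DAD1 were lost. At an unadjusted p under 0.05, 27 of the 41 differed in WT (65.9%, beside 34.9% of all genes) and 25 in KO cells (61%, beside 28.6%). All 3 Tm libraries lay above all 3 DMSO libraries for 23 of the 41 genes in each genotype (56.1%). This held for 19% of all genes tested in WT and 16.9% in KO. They all lay below for 4 of the 41 in WT (9.76%, beside 18.5%) and 3 in KO (7.32%, beside 15.5%). DESeq2 called 21 of the 41 higher and 0 lower in KO cells, beside 1103 higher and 869 lower over all genes. DESeq2 was run on all genes with a count in any library, without the filter on low counts. Its total is thus not the 11323 of the main fit, and the share over all genes was not worked out. The 2 genes that were not tested, TUSC3 and MGAT2, had at most 5 and 4 counts in any library.

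Both genotypes shared 18 genes that rose, and the share of all genes that rose in both was not counted. The 18 included members of all steps, though MOGS alone of the ER glucosidases and MAN1A2 alone of Golgi trimming. MOGS lost its WT call under 6 and its KO call under 2 of 21 alternatives. PMM2, ALG12, KRTCAP2 and MGAT1 rose in WT and were not called in KO cells, and MPI rose in KO and was not called in WT. Scaling by total counts, added after the data were seen, moved the median of all genes to -0.21 in WT and -0.11 in KO. With it 19 of the 41 genes rose and 3 fell in WT, and 17 rose and 1 fell in KO. The share of called genes that were higher went from 53.2% to 28.5% over all genes in WT (1431 higher and 1259 lower against 893 and 2245), and from 58.2% to 36.3% in KO (1029 and 739 against 700 and 1226).

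**Figure D1:**
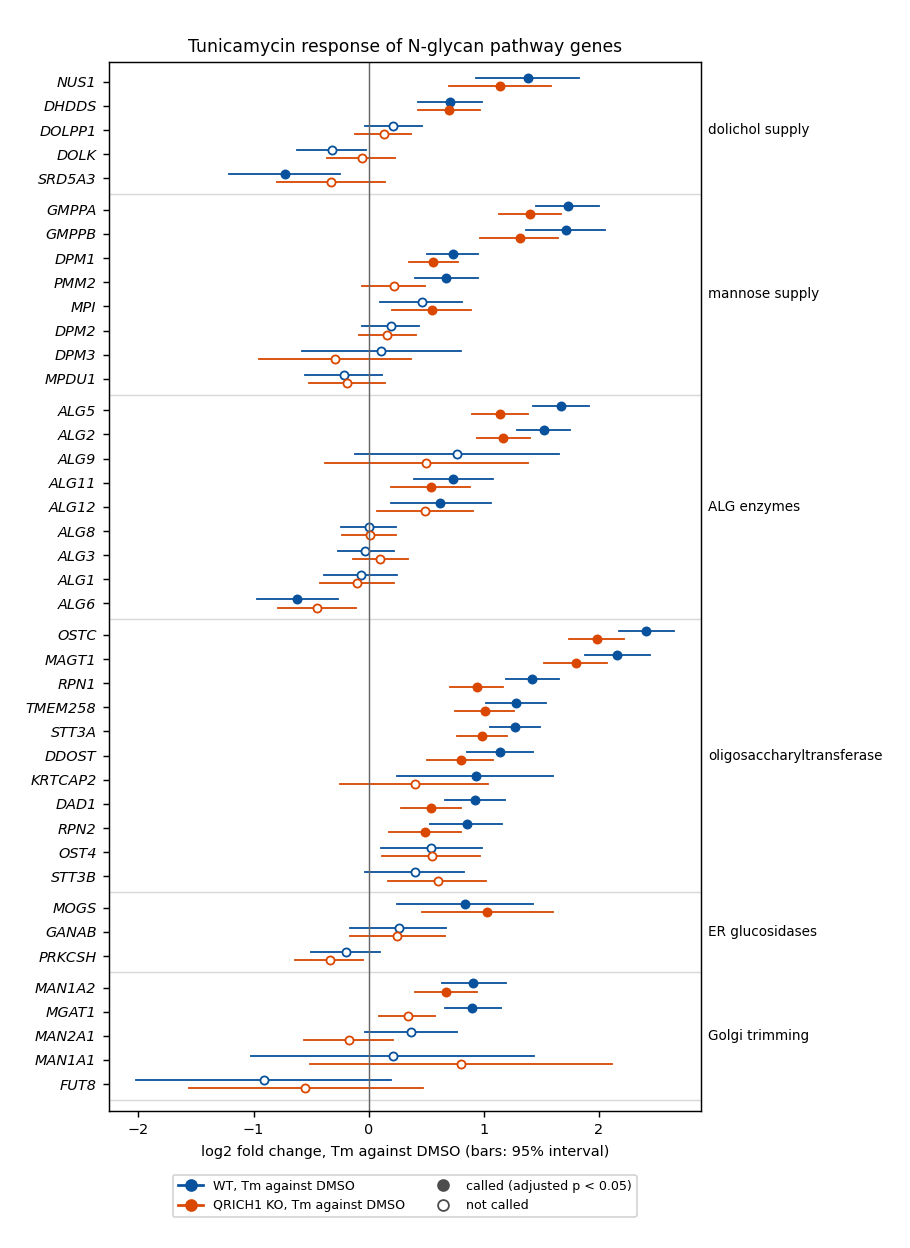
Log2 fold change of Tm against DMSO (x axis) for the 41 tested genes, grouped by step, in WT (blue) and QRICH1 KO (orange), with bars for the 95% interval and filled points for genes called at an adjusted p under 0.05. All 11 tested oligosaccharyltransferase genes lie above 0 in both genotypes, while SRD5A3 and ALG6 are the filled points below 0 in WT.

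Dolichol supply was split, with 2 of 5 genes up, 1 down and 2 not called in WT. NUS1 and DHDDS encode the subunits of the prenyltransferase that makes the polyprenol chain, and both rose. NUS1 measured 5.44, 3.9 and 6.7 CPM in WT DMSO and 14.8, 11.1 and 15.8 in WT Tm, and 5.14, 5.89 and 6.13 CPM in KO DMSO and 12.5, 12.5 and 12.7 in KO Tm. All Tm libraries were above all DMSO libraries, and the KO Tm values lay within the range of WT Tm. The rise was 2.61-fold in WT (log2 1.38, SE 0.215; adjusted p = 0.000105) and 2.2-fold in KO (log2 1.14, SE 0.208; adjusted p = 0.000908). NUS1 has 4 named pseudogenes, between which the authors' counting could split reads.

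DHDDS measured 28.3, 24.3 and 26.8 CPM in WT DMSO and 43.6, 47.9 and 37.1 in WT Tm, and 22.4, 26.9 and 27.4 in KO DMSO and 39.8, 41.1 and 43.4 in KO Tm. Again no Tm library reached down to a DMSO library, and the genotypes overlapped under both treatments. Its rise was of nearly the same size in WT (1.63-fold, log2 0.71, SE 0.131; adjusted p = 0.000592) and KO (1.62-fold, log2 0.70, SE 0.129; adjusted p = 0.00101). The difference between the 2 responses was -0.01 on the log2 scale, with a 95% interval of -0.39 to 0.38.

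SRD5A3, a reductase needed to turn polyprenol into dolichol, went the other way. Its level was 6.8, 5.3 and 6.4 CPM in WT DMSO and 3.96, 3.33 and 3.8 in WT Tm, and 5.2, 4.78 and 4.75 in KO DMSO and 3.73, 4.1 and 3.9 in KO Tm. The Tm libraries of each genotype were all below its DMSO libraries, which held for 18.5% of all genes tested in WT and 15.5% in KO. KO DMSO lay below WT DMSO without a call (log2 -0.32; adjusted p = 0.684), and 6.09% of all genes tested were separated in this direction. SRD5A3 fell in WT (log2 -0.73, SE 0.228; adjusted p = 0.0261), whereas the KO value of -0.33 was not called (adjusted p = 0.353). The gene was low, with at most 92 counts in a library, and the WT call was lost under 7 of 21 alternatives, with an adjusted p of 0.0745 or 0.0697 without WT DMSO library 1 or 3, and of 0.0542, 0.091 or 0.0536 without WT Tm library 1, 2 or 3. DOLK, the kinase that makes dolichol phosphate, had a log2 value of -0.32 in WT (adjusted p = 0.113), and DOLPP1, the phosphatase that recycles the carrier after transfer, 0.21 (adjusted p = 0.209).

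Mannose supply rose mainly at the enzyme that makes GDP-mannose, the activated sugar. In WT 4 of 8 genes rose and none fell, and in KO cells also 4 of 8. GMPPB encodes the catalytic subunit of that enzyme and GMPPA its regulatory subunit. GMPPA measured 24.6, 24.8 and 26.3 CPM in WT DMSO and 77.4, 91.9 and 81.5 in WT Tm, and 27.5, 23.7 and 24.8 in KO DMSO and 68.6, 76.3 and 56.4 in KO Tm. The DMSO groups overlapped, Tm libraries were far above them, and each KO Tm library lay below each WT Tm library. The gene rose 3.31-fold in WT (log2 1.73, SE 0.129; adjusted p = 1.02e-08) and 2.64-fold in KO (log2 1.40, SE 0.127; adjusted p = 2.27e-07).

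For GMPPB the levels were 20.3, 22.6 and 27.2 CPM in WT DMSO and 71.3, 87.6 and 71.2 in WT Tm, and 29.7, 26.9 and 19.5 in KO DMSO and 68.8, 65.8 and 53.9 in KO Tm. Its groups were ordered as those of GMPPA, without overlap between Tm and DMSO. It rose 3.27-fold in WT (log2 1.71, SE 0.163; adjusted p = 2.74e-07) and 2.47-fold in KO (log2 1.31, SE 0.16; adjusted p = 1.14e-05). GMPPB shares 42.3% of its exonic bases with AMIGO3 on the same strand, which was at 0 in all libraries. Whether reads from these shared bases were counted for GMPPB or left out is not given. It also shares 17.3% with RNF123 on the opposite strand, which was not called in WT (log2 0.43, adjusted p = 0.0934).

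Dolichol-phosphate mannose synthase, which loads mannose onto dolichol for the lumenal steps, was called in 1 of its 3 genes, that of the catalytic subunit. DPM1 measured 95, 90.9 and 88 CPM in WT DMSO and 152, 141 and 162 in WT Tm, and 92.8, 89.1 and 81.6 in KO DMSO and 129, 140 and 121 in KO Tm. Tm libraries were all above DMSO libraries. DPM1 rose 1.66-fold in WT (log2 0.73, SE 0.104; adjusted p = 4.28e-05) and 1.48-fold in KO (log2 0.56, SE 0.104; adjusted p = 0.000988). The membrane subunits DPM2 and DPM3 had WT values of 0.19 and 0.11 (adjusted p = 0.271 and 0.852). MPDU1, which is needed for the use of dolichol-linked mannose and glucose, had -0.21 (adjusted p = 0.372).

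Upstream of GDP-mannose, PMM2 moves the phosphate on mannose phosphate and MPI makes that sugar from fructose phosphate. PMM2 went from 21.3 ± 0.913 to 34.1 ± 0.596 CPM in WT (SD, n = 3; log2 0.67, SE 0.131; adjusted p = 0.000886). In KO cells it had 21.3 ± 2.06 CPM with DMSO and 24.6 ± 2.66 with Tm, which was not called (log2 0.22; adjusted p = 0.292). The difference between these responses was -0.46, with a 95% interval of -0.85 to -0.07 and an adjusted p of 0.654. MPI rose in KO (log2 0.55, SE 0.165; adjusted p = 0.0305) and had 0.46 in WT (adjusted p = 0.0563), and its KO call was lost under 5 of 21 alternatives, with an adjusted p of 0.151 without KO DMSO library 2, 0.108 without KO Tm library 1 0.0625 without KO Tm library 2 and 0.0552 without library 3 of both KO groups. MPI shares 24.6% of its exonic bases with FAM219B on the opposite strand.

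The 9 ALG enzymes, which add the sugars to the lipid 1 at a time, differed widely among themselves. Of these 4 rose, 1 fell and 4 were not called in WT, with log2 values from -0.62 to 1.67. ALG5, which makes dolichol-phosphate glucose for the last lumenal steps, measured 44.6, 48.8 and 52.2 CPM in WT DMSO and 139, 175 and 150 in WT Tm, and 51.7, 54.2 and 50 in KO DMSO and 115, 107 and 123 in KO Tm. Each KO Tm library was below each WT Tm library and above all DMSO libraries. ALG5 rose 3.18-fold in WT (log2 1.67, SE 0.116; adjusted p = 3.35e-09) and 2.21-fold in KO (log2 1.14, SE 0.114; adjusted p = 8.21e-07).

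ALG2 and ALG11 add mannoses on the cytosolic face. ALG2 measured 40.7, 41.3 and 47.3 CPM in WT DMSO and 123, 129 and 118 in WT Tm, and 46.7, 43.9 and 42 in KO DMSO and 96.3, 108 and 94 in KO Tm. It showed the same order as ALG5, with KO Tm between the DMSO groups and WT Tm. ALG2 rose 2.86-fold in WT (log2 1.52, SE 0.109; adjusted p = 6.04e-09) and 2.25-fold in KO (log2 1.17, SE 0.108; adjusted p = 2.81e-07).

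ALG11 measured 13.6, 16.6 and 17.3 CPM in WT DMSO and 24.5, 25 and 30.6 in WT Tm, and 16.4, 13.9 and 19.5 in KO DMSO and 20.5, 26.5 and 25.5 in KO Tm. Tm libraries were above DMSO libraries, in KO cells by a narrow margin. It rose in WT (1.66-fold, log2 0.73, SE 0.166; adjusted p = 0.00317) and in KO (1.45-fold, log2 0.54, SE 0.163; adjusted p = 0.032). The KO call of ALG11 was lost under 7 of 21 alternatives, with adjusted p-values of 0.0827 and 0.154 without KO DMSO library 1 or 2, 0.122 and 0.101 without KO Tm library 2 or 3, and 0.052 without library 3 of both KO groups. ALG11 shares 39.7% of its exonic bases with UTP14C on the same strand, which was at 0 in all libraries. Whether reads from these shared bases were counted for ALG11 or left out is not given. ALG1, which adds the first mannose on the same face, had a log2 value of -0.07 in WT (95% interval from -0.39 to 0.25).

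Among the lumenal enzymes, 1 gene rose, 1 fell and 3 were not called in WT. ALG12, a mannosyltransferase, rose from 10.2 ± 2.94 to 15.5 ± 2.37 CPM in WT (SD, n = 3; log2 0.62, SE 0.206; adjusted p = 0.0349), with 1 overlap between the groups, and had 0.49 in KO (adjusted p = 0.11). Its WT call was lost under 7 of 21 alternatives, among them leaving out WT DMSO library 2 or 3 (adjusted p = 0.104 and 0.154) or WT Tm library 2 or 3 (adjusted p = 0.113 and 0.106). CRELD2, on the other side of the ERSE shown above, went from 25 ± 2.91 to 392 ± 41.4 CPM in WT (15.7-fold, adjusted p = 9.09e-13) and from 34.7 ± 3.82 to 246 ± 37.4 in KO (7.08-fold, adjusted p = 8.58e-11). ALG12 and CRELD2 share 168 exonic bases on opposite strands, 3.1% of ALG12, and the libraries carried no strand information. The part of such reads in the ALG12 value was not tested.

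ALG3 and ALG9, the other lumenal mannosyltransferases, and ALG8, which adds the middle glucose, were not called. ALG3 had a log2 value of -0.03 in WT (95% interval from -0.27 to 0.22), and its promoter holds the same ACGTGG as those of OSTC, NUS1 and GMPPB. ALG8 had -0.00 in WT and 0.01 in KO. ALG9 was low, at 1.77 ± 0.791 CPM in WT DMSO, and its 0.77 carried a wide interval of -0.12 to 1.65. It shares 24.4% of its exonic bases with AP001781.2, another counted gene on the same strand.

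ALG6, which adds the first glucose, fell in WT. It measured 19.7, 21.4 and 24.4 CPM in WT DMSO and 14.9, 12.3 and 15.7 in WT Tm, and 17.5, 20.8 and 23.5 in KO DMSO and 13.1, 15.5 and 16.6 in KO Tm. In each genotype every Tm library was below every DMSO library, which held for 18.5% of all genes tested in WT and 15.5% in KO. The WT value was -0.62 (SE 0.166; adjusted p = 0.00998) and the KO value -0.45 (SE 0.162; adjusted p = 0.0694, not called). Without WT Tm library 2 the WT call was lost (adjusted p = 0.057). ALG5 thus rose while ALG6, which uses the donor that ALG5 makes, fell: per kb of exonic length the ratio of ALG5 to ALG6 was 5.58 ± 0.195 in WT DMSO and 27.7 ± 7.02 in WT Tm, and 6.43 ± 1.04 and 19.2 ± 2.42 in KO (SD, n = 3). This ratio was chosen after its values were seen.

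**Figure D2:**
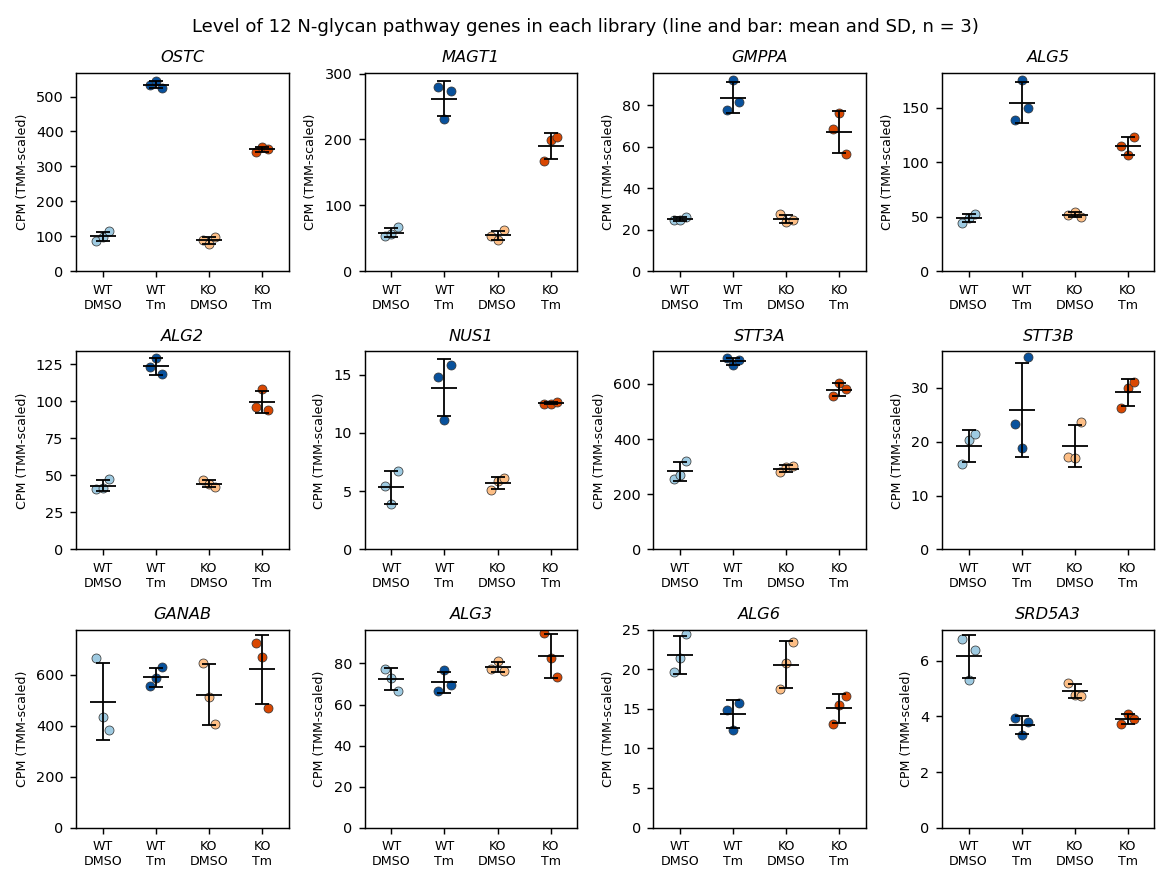
TMM-scaled CPM (y axis, from 0) of 12 genes in each library, by group, with a line and bar for mean and SD (n = 3). OSTC, MAGT1, GMPPA, ALG5, ALG2 and STT3A are highest in WT Tm and intermediate in KO Tm, GANAB and ALG3 overlap across the groups, and ALG6 and SRD5A3 are lower with Tm.

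Most genes of the oligosaccharyltransferase, which transfers the finished sugar to protein, rose. Of its 11 tested genes 9 were called higher in WT and 8 in KO. STT3B and OST4 were called in neither genotype, and KRTCAP2 was not called in KO (adjusted p = 0.437). All 11 values were above 0 in both, between 0.40 and 2.41 in WT and between 0.40 and 1.98 in KO. OSTC, a subunit that joins the complex of the catalytic subunit STT3A to the translocon, had the highest WT value of the 41 genes. OSTC measured 87.4, 99.2 and 114 CPM in WT DMSO and 534, 543 and 523 in WT Tm, and 89.5, 78.9 and 96.8 in KO DMSO and 341, 356 and 351 in KO Tm. All DMSO libraries were low, KO Tm was in the middle and WT Tm was high, with no overlap between them. OSTC rose 5.32-fold in WT (log2 2.41, SE 0.116; adjusted p = 2.34e-11) and 3.95-fold in KO (log2 1.98, SE 0.114; adjusted p = 5.29e-10). It has 6 named pseudogenes, which the authors' counting could treat as copies. KRTCAP2, its partner in the STT3A complex, was low and rose from 2.13 ± 0.0957 to 4.06 ± 0.701 CPM in WT (adjusted p = 0.0427), but the call was lost under 10 of 21 alternatives, among them leaving out any 1 of the WT libraries (adjusted p from 0.0627 without WT Tm library 3 to 0.16 without WT Tm library 1) or KO DMSO library 2 (0.0529).

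MAGT1, the oxidoreductase subunit of the complex of the other catalytic subunit, STT3B, had the next highest value. It measured 52.8, 56.1 and 66.5 CPM in WT DMSO and 280, 231 and 274 in WT Tm, and 53.6, 48.2 and 62.1 in KO DMSO and 168, 199 and 203 in KO Tm. As for OSTC, KO Tm lay between the DMSO libraries and WT Tm without overlap. MAGT1 rose 4.47-fold in WT (log2 2.16, SE 0.133; adjusted p = 6.28e-10) and 3.48-fold in KO (log2 1.80, SE 0.131; adjusted p = 1.15e-08). TUSC3, the paralogue that can take the place of MAGT1, had 0 to 5 counts per library. It was highest in KO Tm library 3, at 0.398 CPM, above that library's upper limit of 0.243 CPM for a count of 0. In each of the other libraries it was under that library's limit.

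Of the catalytic paralogues, STT3A was called with Tm and STT3B was not, and the difference between their responses was not tested. STT3A stood at 257, 271 and 321 CPM in WT DMSO and 692, 668 and 687 in WT Tm, and at 280, 297 and 302 in KO DMSO and 555, 602 and 581 in KO Tm. Each group with Tm was above both DMSO groups, and KO Tm was below WT Tm. It rose 2.41-fold in WT (log2 1.27, SE 0.104; adjusted p = 3.58e-08) and 1.98-fold in KO (log2 0.98, SE 0.103; adjusted p = 1.59e-06).

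STT3B stood at 15.9, 20.3 and 21.4 CPM in WT DMSO and 23.2, 18.9 and 35.7 in WT Tm, and at 17.1, 16.9 and 23.7 in KO DMSO and 26.3, 30 and 31.1 in KO Tm. The WT groups overlapped, with 1 high Tm library, while in KO the Tm libraries were above the DMSO libraries. The order seen in KO held for 16.9% of all genes tested. Neither value was called, at 0.40 in WT (95% interval from -0.03 to 0.83; adjusted p = 0.178) and 0.60 in KO (95% interval from 0.17 to 1.02; adjusted p = 0.0535), and the KO value passed the threshold under 9 of 21 alternatives. Per kb of exonic length, the ratio of STT3A to STT3B was 10 ± 0.967 in WT DMSO, 19.1 ± 5.58 in WT Tm, 10.5 ± 1.71 in KO DMSO and 13.5 ± 0.842 in KO Tm (SD, n = 3), given as a description without a test.

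The subunits that both complexes share rose, with the exception of OST4, which was not called. RPN1 (ribophorin I) measured 960, 865 and 878 CPM in WT DMSO and 2346, 2598 and 2286 in WT Tm, and 1003, 914 and 983 in KO DMSO and 1808, 2051 and 1704 in KO Tm. All Tm libraries were above all DMSO libraries, and KO Tm was below WT Tm throughout. RPN1 rose 2.68-fold in WT (log2 1.42, SE 0.109; adjusted p = 1.51e-08) and 1.92-fold in KO (log2 0.94, SE 0.108; adjusted p = 5.23e-06). TMEM258, DDOST, DAD1 and RPN2 followed with WT values of 1.28, 1.14, 0.92 and 0.85, and KO values of 1.01, 0.80, 0.54 and 0.49, all called. The KO call of RPN2 was lost under 5 of 21 alternatives, with adjusted p-values of 0.103 and 0.0839 without KO DMSO library 2 or 3 and of 0.0884 and 0.142 without KO Tm library 1 or 2, and that of DAD1 without library 3 of both KO groups (adjusted p = 0.0549). OST4, the smallest subunit, had 0.54 in WT (adjusted p = 0.0659) and 0.55 in KO (adjusted p = 0.0759).

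Per kb of exonic length, RPN2, RPN1 and DDOST were the highest of the 43 genes in WT DMSO, at 437, 226 and 204 CPM per kb. At the other end of the enzyme, KRTCAP2 stood at 0.558 CPM per kb and TUSC3 at 0.00478. KRTCAP2 shares 18.4% of its exonic bases with AL713999.1, another counted gene on the same strand. The lengths take in all annotated exons of a gene, so levels per kb are approximate. Under Tm in WT, OSTC came to 330 CPM per kb, beside 449 for DDOST, whereas with DMSO it had stood at 61.9. The summed level of the 12 subunits was 3247 ± 340 CPM in WT DMSO, 7553 ± 478 in WT Tm, 3363 ± 165 in KO DMSO and 5952 ± 528 in KO Tm (SD, n = 3), a ratio of Tm to DMSO of 2.33 in WT and 1.77 in KO.

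**Figure D3:**
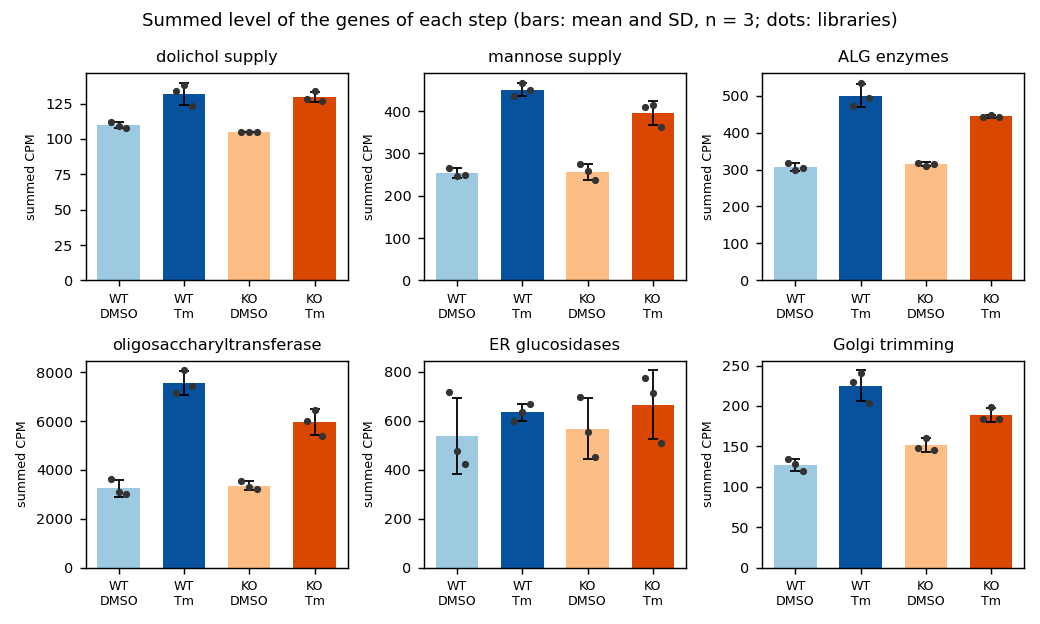
Summed CPM (y axis, from 0) of the genes of each of 6 steps by group, with bars for mean and SD (n = 3) and dots for libraries. The oligosaccharyltransferase sum is 3247 in WT DMSO, 7553 in WT Tm and 5952 in KO Tm, while the sums of the ER glucosidases overlap across all groups.

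After transfer, the ER glucosidases remove the outer glucoses, and 1 of their 3 genes rose. MOGS, glucosidase I, measured 11.8, 7.37 and 4.02 CPM in WT DMSO and 11.1, 15.8 and 13.5 in WT Tm, and 8.25, 7.35 and 6.26 in KO DMSO and 16.2, 16.6 and 12 in KO Tm. The WT groups overlapped and the KO groups did not. MOGS rose in WT (1.8-fold, log2 0.84, SE 0.281; adjusted p = 0.0361) and in KO (2.04-fold, log2 1.03, SE 0.272; adjusted p = 0.0146). The WT call was lost under 6 of 21 alternatives, among them leaving out WT DMSO library 2 or 3 (adjusted p = 0.104 and 0.152) or WT Tm library 2 or 3 (0.138 and 0.0764), and the KO call without KO DMSO library 2 (0.0512) or KO Tm library 2 (0.059).

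Glucosidase II was not called in either of its genes. Its catalytic subunit GANAB ranked with the oligosaccharyltransferase in level, at 98.4 CPM per kb in WT DMSO, and its libraries spread widely. GANAB stood at 668, 433 and 385 CPM in WT DMSO and 555, 588 and 629 in WT Tm, and at 648, 512 and 408 in KO DMSO and 725, 671 and 468 in KO Tm, so that all groups overlapped. Its log2 values were 0.26 in WT (95% interval from -0.16 to 0.67) and 0.25 in KO. PRKCSH, the regulatory subunit, had -0.20 in WT (adjusted p = 0.349) and -0.34 in KO (adjusted p = 0.111).

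In the Golgi, 2 of 5 tested genes rose in WT and 1 in KO. MAN1A2, a mannosidase of the first Golgi trimming step, measured 20.3, 21.1 and 21.9 CPM in WT DMSO and 42.8, 38.4 and 38 in WT Tm, and 19.8, 17.8 and 22.6 in KO DMSO and 31, 30.1 and 34.5 in KO Tm. Tm libraries were above DMSO libraries, and KO Tm was below WT Tm. MAN1A2 rose 1.88-fold in WT (log2 0.91, SE 0.129; adjusted p = 3.79e-05) and 1.59-fold in KO (log2 0.67, SE 0.128; adjusted p = 0.0014). Its paralogue MAN1A1 was near the limit of detection, with 0.68, 0.853 and 1.04 CPM in WT DMSO, 1.15, 1.06 and 0.76 in WT Tm, 0.113, 0.277 and 0.938 in KO DMSO and 0.714, 0.82 and 0.796 in KO Tm. No difference in MAN1A1 was detectable at this depth.

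MGAT1, the transferase that starts the rebuilding of the trimmed sugar, measured 92.9, 92.5 and 78.2 CPM in WT DMSO and 163, 183 and 146 in WT Tm, and 107, 115 and 103 in KO DMSO and 133, 150 and 126 in KO Tm. Tm libraries lay above DMSO libraries in each genotype, which held for 19% of all genes tested in WT and 16.9% in KO. KO DMSO lay above WT DMSO without a call (log2 0.30; adjusted p = 0.453), and 7.4% of all genes tested were separated in this direction. MGAT1 rose 1.87-fold in WT (log2 0.90, SE 0.116; adjusted p = 1.28e-05). In KO it was not called (log2 0.34, SE 0.115; adjusted p = 0.0555) and passed the threshold under 5 of 21 alternatives. The difference between the responses was -0.57, with a 95% interval of -0.91 to -0.23, and it was not called (adjusted p = 0.368). MAN2A1, which trims after MGAT1, had 0.37 in WT, and FUT8, which adds the core fucose, -0.91 with an interval from -2.02 to 0.19, at 2.95 ± 1.69 CPM in WT DMSO. MGAT2, which acts after MAN2A1, was at most at 0.304 CPM, and 91.9% of its exonic bases are covered by an antisense gene that was not in the table.

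QRICH1 KO against WT under Tm asks whether the guide changed the level that the pathway reached under stress. Of the 41 genes 1 was called, OSTC, which was lower in KO, and none was called higher. Over all genes 0.406% were called higher and 0.76% lower. OSTC was 1.53-fold lower in KO Tm than in WT Tm (log2 -0.61, SE 0.11; adjusted p = 0.00828), at 350 ± 7.46 against 533 ± 9.85 CPM (SD, n = 3). The call held under 20 of 21 alternatives and was lost with total-count scaling (log2 -0.55, adjusted p = 0.0579). DESeq2 called 5 of the 41 genes lower and 0 higher, beside 203 lower and 87 higher over all genes. The DESeq2 run had no filter on low counts, so the share over all genes was not worked out here either. The 5 were OSTC, MAGT1, RPN1, ALG5 and PMM2, for which edgeR gave log2 values of -0.61, -0.46, -0.38, -0.43 and -0.46. The edgeR adjusted p-values of MAGT1, RPN1, ALG5 and PMM2 were 0.089, 0.106, 0.0717 and 0.102.

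The other 40 genes were not called. Of the 41 log2 values 29 were below 0 (70.7%, beside 48.5% of all genes tested) and 12 above. In 15 of the 41 genes (36.6%) all KO Tm libraries were below all WT Tm libraries, which held for 9.06% of all genes tested, and in 1 gene, DPM2, they were all above, which held for 9.41%. The 15 comprise PMM2, GMPPA, GMPPB, DPM1, ALG1, ALG2, ALG5, STT3A, RPN1, RPN2, DDOST, DAD1, OSTC, MAGT1 and MAN1A2. The median over the 41 was -0.14, beside 0.01 for all genes. At an unadjusted p under 0.05, 13 of the 41 differed (31.7%), beside 13.4% of all genes. Dolichol supply had log2 values between -0.14 and 0.08 and the ER glucosidases between -0.07 and 0.15, 2 of 3 above 0, whereas the 11 oligosaccharyltransferase genes ran from -0.61 to 0.19 with a median of -0.28. Golgi trimming had a median of -0.27, with 4 of 5 tested genes below 0. The medians were -0.14 for the ALG enzymes (6 of 9 below 0) and -0.12 for mannose supply (6 of 8).

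QRICH1 KO against WT under DMSO asks the same of unstressed cells. No gene of the 41 was called in either direction, beside 0.0177% of all genes called higher and 0.0795% lower. At an unadjusted p under 0.05, 3 of the 41 differed (7.32%, beside 9.07% of all genes), and DESeq2 called 0. The median was 0.04, and OSTC had -0.18 (95% interval from -0.42 to 0.05; adjusted p = 0.639). The intervals of the low genes were wide, down to -2.26 for MAN1A1, so a difference there was not detectable at this depth.

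The interaction tests whether the Tm response itself differed between genotypes, and it called none of the 41 genes, as it called 0% of all genes higher and 0% lower. At an unadjusted p under 0.05, 7 of the 41 differed (17.1%, beside 6.84% of all genes), and DESeq2 called 0 of the 41. The response was lower in KO for 29 of the 41 (70.7%, beside 48.8% of all genes), with a median difference of -0.20. Of the 22 genes that rose in WT, 21 had a smaller log2 value in KO, which the choice by the WT value favours. The lowest adjusted p of the 41 was 0.368, for MGAT1. The genotype comparison under Tm, the interaction and the WT response share the WT Tm libraries and are not independent of each other.

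**Figure D4:**
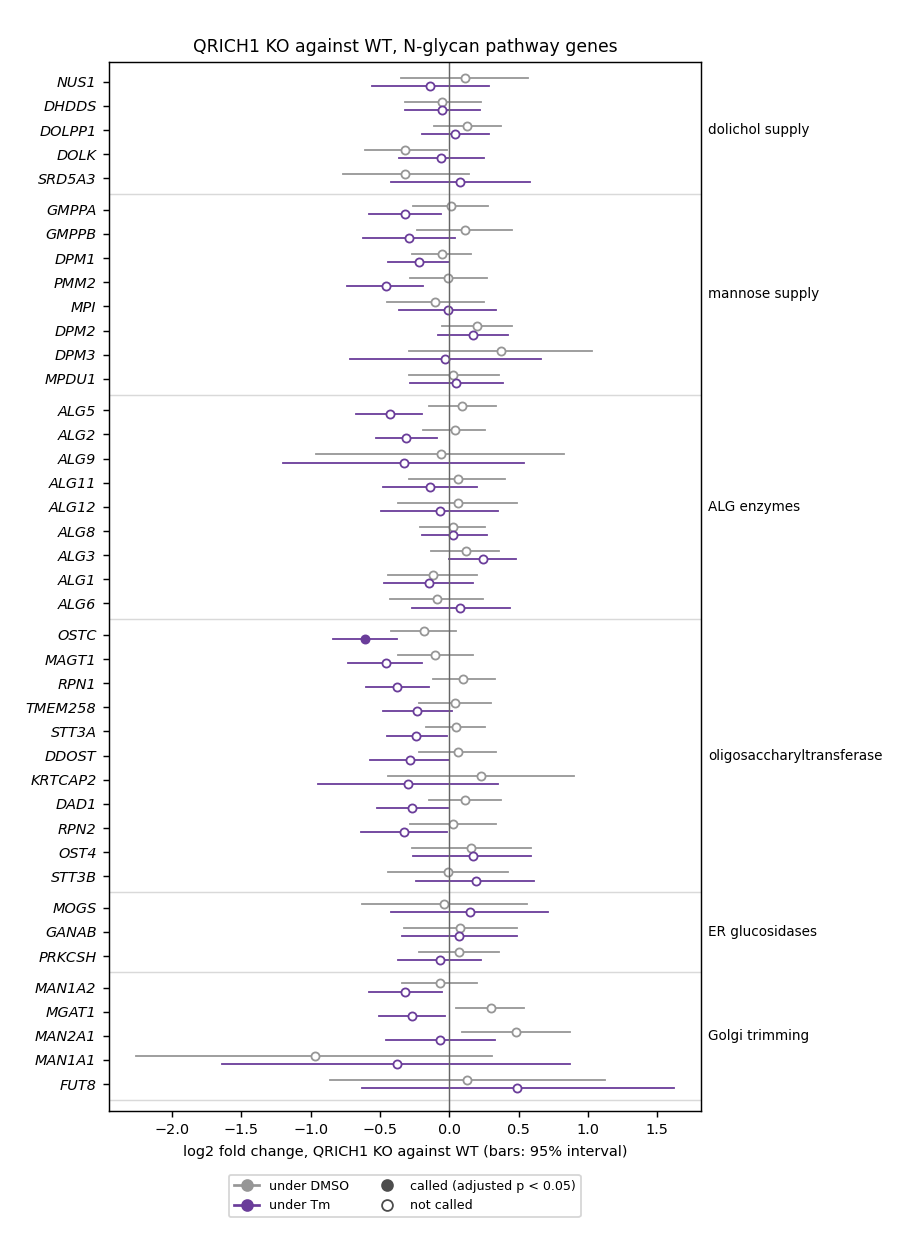
Log2 fold change of QRICH1 KO against WT (x axis) for the 41 tested genes by step, under DMSO (grey) and Tm (purple), with bars for the 95% interval and filled points for genes called at an adjusted p under 0.05. OSTC under Tm, at -0.61, is the single filled point, and the purple points of the oligosaccharyltransferase genes run from -0.61 to 0.19.

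Genes next to these in the pathway were taken from lists of 32 further genes. UDP-GlcNAc supply, which makes the sugar donor used by the step that Tm blocks, rose in 4 of 4 genes in both genotypes, though GNPNAT1 lost its KO call without KO DMSO library 2 (adjusted p = 0.0578) or KO Tm library 2 (0.0612). Its WT values were 2.38 for PGM3 and 2.25 for GFPT1, the rate-limiting enzyme of that route, and the summed level of the 4 genes was 256 ± 14.7 CPM in WT DMSO and 1033 ± 96 in WT Tm (SD, n = 3). GFPT1 was lower in KO than in WT under Tm (log2 -0.62; adjusted p = 0.0234), a call lost under 5 of 21 alternatives, with adjusted p-values of 0.107 and 0.0738 without WT Tm library 1 or 3 and of 0.12 and 0.0985 without KO Tm library 1 or 2. Among 7 other genes of lipid-linked sugar steps, 3 rose and 1 fell in WT: ALG14, a subunit of the enzyme that adds the next GlcNAc, had 1.05 (adjusted p = 0.000325) and PMM1, the paralogue of PMM2, -0.74 (adjusted p = 0.0121). The PMM1 call was lost without WT DMSO library 2 (adjusted p = 0.0657) or WT Tm library 1 (adjusted p = 0.0802). DPAGT1, the target of Tm, also rose, by 0.74 in WT (adjusted p = 9.45e-05) and 0.47 in KO (adjusted p = 0.0079, and 0.0582 without KO DMSO library 2). In this list 2 of 7 rose in KO.

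Downstream of the glucosidases, the glycoprotein folding cycle rose in 5 of 6 genes in WT and 4 of 6 in KO. The KO count includes UGGT1, which returns glucose to misfolded glycoproteins (log2 0.67; adjusted p = 0.0336). This call was lost under 5 of 21 alternatives, with an adjusted p of 0.136 or 0.0904 without KO DMSO library 1 or 2, 0.231 without KO Tm library 3 (log2 0.39) and 0.103 without library 3 of both KO groups. In WT the call of UGGT1 was lost without WT DMSO library 1 (adjusted p = 0.0507), and that of MLEC without WT DMSO library 3 (0.0701) or WT Tm library 3 (0.0592). The lectin chaperone CANX was not called in WT (adjusted p = 0.0508) or KO (0.0589), and passed the threshold under 10 and 4 of 21 alternatives. PDIA3, a disulfide isomerase for glycoproteins, rose 4.66-fold and CALR, the soluble relative of CANX, 3.99-fold in WT (adjusted p = 3.57e-11 and 6.15e-10). CALR was lower in KO than in WT under Tm (log2 -0.61; adjusted p = 0.0143), and lost this call without WT Tm library 2 (adjusted p = 0.0593), KO Tm library 2 (0.0558) or KO Tm library 3 (0.0664). Mannose trimming that marks proteins for degradation rose in 3 of 4 genes in both genotypes, with EDEM1 at 1.93 and EDEM3 at 1.47 in WT. EDEM3 rose by 1.09 in KO (adjusted p = 0.0141), a call lost without KO DMSO library 1 or 2 (0.0516 and 0.0542) or KO Tm library 3 (0.0842). Of 8 later Golgi enzymes 5 were tested, and 1 rose and 1 fell in WT, B4GALT1 at 0.66 and MGAT5 at -0.48 (adjusted p = 0.000201 and 0.0359). MGAT5 lost its call without WT DMSO library 1 or 2 (adjusted p = 0.138 and 0.154) or WT Tm library 1, 2 or 3 (0.0575, 0.089 and 0.107). None of the 3 genes for removal of N-glycans was called in either genotype.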

How the data were processed

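RNA was measured in 12 libraries by a modified Smart-seq2 method with Nextera XT libraries on a NextSeq, per the labels' protocols. The authors deposited whole-number read counts per gene, unnormalised. The submitters' processing notes name Trimmomatic, STAR, DESeq2 and hg38. Which tool counted the reads, and whether by strand, is not given in the sources used here. Symbols and hg38 positions came from GENCODE 29 (19972 of 20015 identifiers matched).

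Groups follow the sample titles. Counts were scaled by TMM and tested in R 4.3.3 with edgeR 4.0.16, whose quasi-likelihood test was fitted with 4 group means to all 12 libraries. Genes were kept with filterByExpr at a minimum count of 10, leaving 11323. P-values are two-sided with Benjamini-Hochberg adjustment over these genes, called under 0.05, and SEs and 95% intervals come from the same fit. The p-values measure the spread between these libraries. The labels do not say that replicate numbers mark pairs, so the main fit did not pair libraries. Of 18 same-numbered pairs of libraries, 6 had a correlation over 0.1. Correlations ran from -0.186 to 0.265 in same-numbered pairs and from -0.241 to 0.226 in the others. KO DMSO and KO Tm had 0.213 for libraries 1, 0.002 for libraries 2 and 0.265 for libraries 3. These values do not settle whether the KO libraries were paired. Libraries of a group differed beyond sampling noise (chi-square per degree of freedom from 8.64). No column was left out.

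Members and lists were chosen with earlier results of these data known. Values in every library are given for up to 3 called genes per step with the largest WT change, genes called between genotypes or called lower with Tm, and paralogue pairs. GANAB, and the single values of other genes, were added after their values were seen. From further lists up to 2 genes are named, DPAGT1 was added as the target of Tm, and UGGT1, CANX, MLEC and GNPNAT1 after their values were seen. Alternatives were other scaling factors (RLE, upper quartile, total counts), DESeq2 1.42.0, no filter, a minimum count of 30, only the groups compared, a replicate block, and leaving out each library or library 3 of both KO groups.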

Additional observations from a re-analysis of the deposited data

How the results depend on the processing

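No called value changed direction under the alternatives run for it. The number of the 41 genes that rose stayed between 19 and 23 in WT and between 15 and 21 in KO, and under each alternative run none was called under DMSO between genotypes or in the interaction. Calls held under all 21 alternatives for 19 of 24 genes in WT and 14 of 19 in KO. The cause of the following changes was not tested. Genes called lower in WT numbered 1 without the filter or with only the groups compared, and 0 to 2 when a library was left out. In KO 1 was called lower with upper-quartile factors, the replicate block or total-count scaling, and 0 to 1 when a library was left out. In KO against WT under Tm, 5 were called lower by DESeq2, 2 without the filter, 2 with the replicate block and 0 with total-count scaling, against 1. The replicate block changed no other count of the 41 genes by over 1.5 times. With total-count scaling the medians were 0.52 in WT and 0.43 in KO, and leaving out a library gave 0.60 to 0.71 in WT. Over all genes, KO against WT under Tm gave 46 higher and 86 lower, but 87 and 203 with DESeq2, 126 and 153 without the filter, as few as 13 (without WT Tm library 1) and 35 (without KO Tm library 2) with 1 library left out, and 57 lower with total-count scaling. Under DMSO 2 and 9 became 23 and 36 with DESeq2, 76 and 62 without the filter, 40 and 19 without library 3 of both KO groups, 4 higher with the replicate block, 4 lower with only the groups compared, 3 lower without WT DMSO library 2 and 26 higher without KO DMSO library 3. The interaction's 0 and 0 became 9 and 37 with DESeq2 and 12 and 32 without the filter, with 5 lower under total-count scaling and 4 without WT DMSO library 3. Genes called lower with Tm in KO fell from 739 to 469 without library 3 of both KO groups, and to 439, 389, 438 and 400 without KO DMSO library 1 or 2 or KO Tm library 2 or 3. With total-count scaling the genes called with Tm went from 1431 higher and 1259 lower to 893 and 2245 in WT, and from 739 to 1226 lower in KO. Counts were low for TUSC3, MGAT2, MAN1A1, ALG9, FUT8 and KRTCAP2, which limits what their values show. Of these MGAT2, ALG9 and KRTCAP2 share 91.9%, 24.4% and 18.4% of their exonic bases with another gene. The part of depth and of shared bases in the low counts was not tested.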
